A study of Mus musculus with 16 samples.

Results

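Transcripts of 10 genes of mitochondrial dynamics, biogenesis and import were followed over 16 arrays of mouse cerebellum: the fusion genes Mfn1, Mfn2 and Opa1, the fission genes Dnm1l, Fis1 and Mff, the biogenesis regulators Ppargc1a, Tfam and Nrf1, and the import receptor gene Tomm20. Members were taken as every probe, other than control probes, whose accession belongs to 1 of these genes. All 10 were on the array, among 22911 genes that could be named, and they had 22 probes. The 20 probes that were kept covered all 10 genes and were well above background on all 16 arrays. Of the other probes, 1 for Nrf1 was well above background on 0 arrays, and 1 for Fis1 was set aside because its spot carried an outlier mark on 1 array.

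Mitochondria form a network that is joined by fusion and cut by fission. The outer-membrane GTPases MFN1 and MFN2 and the inner-membrane GTPase OPA1 carry out fusion, whereas DRP1, the product of Dnm1l, is recruited from the cytosol by adaptors such as MFF to constrict the organelle. The coactivator PGC-1α, encoded by Ppargc1a, works with nuclear respiratory factors, among them NRF1, to raise nuclear genes for mitochondria. These include Tfam, whose product packages mitochondrial DNA and takes part in its transcription. TOM20 is a receptor of the outer-membrane translocase and recognizes the presequences of imported proteins. Neurons such as Purkinje cells depend on these processes to keep mitochondria in long dendrites and axons.

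The mice came from the strain B6;129S4-Atmtm1Bal/J and were homozygous for a germline Atm mutation (Atm-/-) or wild-type littermates (WT). Both genotypes received either plain drinking water (veh) or water with nicotinamide riboside (NR), a precursor of NAD+, at 12 mM or 3.5 mg/ml for 2 months, and cerebellar cortex was taken at an age of 3.5 months. This gave 4 groups of 4 mice (WT veh and Atm-/- veh, WT NR and Atm-/- NR), with 1 array per mouse. The mutation was present in every cell type of the body and not in cerebellar cells alone. Values are log2 signals after quantile normalization, and a member is described by its brightest kept probe unless another probe is named.

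Several properties of the arrays bear on every comparison. Slide 1 carried the WT arrays and slide 2 those of Atm-/-, so slide and genotype cannot be told apart, and veh and NR arrays lay in different rows of both slides, so treatment and row cannot be told apart. The number of probes well above background ran from 39134 to 41905 on the Atm-/- veh arrays and from 34945 to 37817 on the Atm-/- NR arrays, without overlap, and its part in the results was not tested. All mice were labelled male, but signal of Uty, Kdm5d and Eif2s3y, which lie on the Y chromosome, was not above background on 4 arrays, where Xist was (Atm-/- veh 3, Atm-/- NR 4 and arrays 1 and 4 of WT NR), so results are also given for the other 12 arrays. The array WT veh 4 stood apart, with its choroid plexus markers 4.18 and its forebrain markers 2.92 above their mean over all arrays (log2, mean of 5 genes in each list), and on Atm-/- veh 3 the blood markers (3 genes) were 2.33 above theirs. All 8 Purkinje cell markers and all 8 granule cell markers were well above background on all 16 arrays. Such detection does not tell tissues apart. The forebrain markers Neurod6, Tbr1 and Ppp1r1b and the choroid plexus marker Ttr were also well above background on all 16 arrays. The mean level of the Purkinje list, relative to its mean over all arrays, ran from -0.18 to 0.16 on the Atm-/- veh arrays and from -0.02 to 0.14 on the Atm-/- NR arrays, and that of the granule list from -0.02 to 0.07 and from -0.14 to 0.05. In WT the Purkinje list ran from -0.54 to 0.09 with veh and from -0.12 to 0.23 with NR. The granule list ran from -0.43 to 0.26 and from -0.11 to 0.20. Both lists were lowest on WT veh 4, where the microglia list was at 0.71. The oligodendrocyte list was at 0.76 on WT NR 4. Among all markers checked, 1 Purkinje marker, Car8, rose with NR in Atm-/- (1.10; limma, adjusted p = 0.0417) and 1 forebrain marker, Ppp1r1b, fell by 0.58 (limma, adjusted p = 0.0124). The median NR difference in Atm-/- was -0.23 over the endothelial and -0.36 over the choroid plexus markers, with 0 of them called. The part of these markers in the results was not tested. In cerebellar tissue, fewer cells of a type and less RNA per cell cannot be told apart.

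Atm itself was read by 2 probes. On A_66_P114939 the WT signal was 8.84 ± 0.16 with veh and 8.59 ± 0.07 with NR, against 7.97 ± 0.08 and 7.82 ± 0.07 in the mutant (SD, n = 4). Without NR the mutant differed by -0.87 (limma, adjusted p = 0.000317), and no Atm-/- array reached a WT array. On A_52_P400509 the difference was -0.35 without NR (limma, adjusted p = 0.22) and -0.12 under NR (limma, adjusted p = 0.9997), and array Atm-/- NR 2, at 9.23, lay within the WT range on this probe. Where these probes lie relative to the mutated part of the gene was not given in the sources used here.

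**Figure D1:**
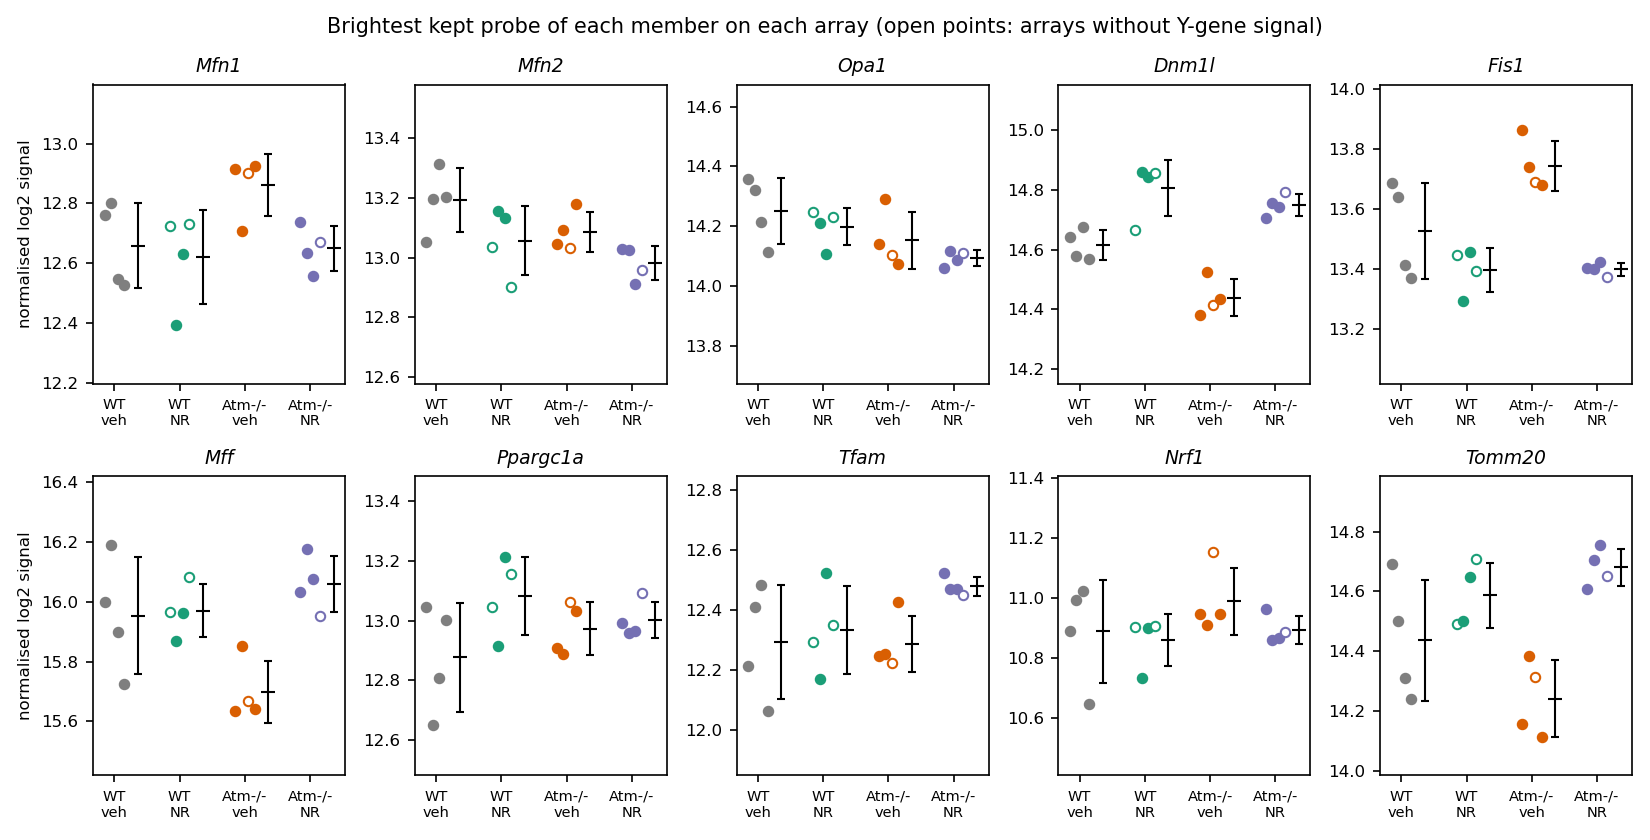
Normalized log2 signal (vertical axes) of the brightest kept probe of each of the 10 members on each of the 16 arrays by group, with the mean and SD (n = 4 mice) as black bars. Open points are the 4 arrays without Y-gene signal. For Dnm1l, Mff, Tomm20 and Tfam all Atm-/- NR arrays lay above all Atm-/- veh arrays, and for Fis1 and Mfn2 all lay below. These groups did not overlap for 26.3% of all genes.

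The comparison of Atm-/- NR with Atm-/- veh asked how NR moved these genes in the mutant cerebellum, and it held the only pairwise calls among the members. Dnm1l, Mff and Tomm20 rose and Fis1 fell, by 0.31 to 0.44 in size on the log2 scale, while the fusion genes and the biogenesis regulators gave 0 calls on their brightest kept probes. Thus 4 of 10 members passed an adjusted p of 0.05 (limma, Benjamini-Hochberg), 3 higher and 1 lower. Over all 16737 genes measured, 11.5% were called in this comparison, 6.67% higher and 4.8% lower with NR. The groups did not overlap for 6 members (the called members, Mfn2 and Tfam), against 26.3% of all genes. The median size of the change was 0.20 for the members and 0.20 for all genes, so the members moved about as far as a typical gene. On the 12 arrays with Y-gene signal, 0 of the 10 members and 1.51% of all genes were called. With all cut-offs of the methods' t-test on the deposited scores (a z-ratio of 1.5, a p of 0.05, an FDR of 0.3 and a test over the 4 groups), 0 of the 10 members and 1.91% of all genes passed. Single arrays moved both counts: 0 members and 3.01% of all genes were called without Atm-/- veh 1, 2 and 4.71% without Atm-/- veh 4, 1 and 5.31% without Atm-/- NR 2, and 1 and 3.12% without Atm-/- NR 3.

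The regions before the start sites of the members were searched for motifs of factors that control nuclear genes for mitochondria. In RefSeq windows of 250 bases before each annotated start (GRCm38.p6, both strands, 16 windows for 10 members), the NRF1 core GCGCNTGCG was found for 2 members, Opa1 and Tomm20, and is present for 5.88% of all genes with a window. The GABP core CCGGAAG was found for 3 members, Mfn1, Fis1 and Tfam (7.83% of all genes), and the ERR core TCAAGGTCA for 0 (0.422% of all genes). No window held 2 different motifs, and the Opa1 match is 1 palindromic stretch read on both strands. Of the members called with NR in Atm-/-, Tomm20 and Fis1 hold a match and Dnm1l and Mff hold none, and the matched pair moved in opposite directions. The windows of the matched pair are shown with the motif in capitals, for Tomm20 at chr8:126945922-126946171 on the minus strand (match beginning 20 bases before the start) and for Fis1 at chr5:136953025-136953274 on the plus strand (beginning 18 bases before the start), as a description of sequence and not of binding.
Tomm20: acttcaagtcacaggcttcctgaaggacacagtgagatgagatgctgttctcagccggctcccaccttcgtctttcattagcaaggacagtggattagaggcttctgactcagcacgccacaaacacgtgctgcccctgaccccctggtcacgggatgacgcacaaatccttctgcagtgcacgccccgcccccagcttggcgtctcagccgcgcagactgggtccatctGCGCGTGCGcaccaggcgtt
Fis1: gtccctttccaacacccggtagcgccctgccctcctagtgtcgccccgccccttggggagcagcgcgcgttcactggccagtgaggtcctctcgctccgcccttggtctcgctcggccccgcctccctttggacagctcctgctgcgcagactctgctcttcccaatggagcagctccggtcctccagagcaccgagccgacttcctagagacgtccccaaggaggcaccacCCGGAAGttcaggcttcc

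Dnm1l encodes the GTPase that constricts mitochondria during fission, and it had 1 probe. Its log2 signal in Atm-/- veh was 14.38, 14.52, 14.42 and 14.44, and in Atm-/- NR it was 14.71, 14.76, 14.74 and 14.79. In WT veh it was 14.64, 14.58, 14.68 and 14.57, and in WT NR 14.66, 14.86, 14.84 and 14.85. All Atm-/- veh arrays thus lay below all arrays of the other 3 groups. With NR the signal in Atm-/- rose by 0.31 ± 0.06 (SE; 1.24-fold; limma, adjusted p = 0.0145). It was the steadiest member, with an SD within groups of 0.06. Without Atm-/- veh 1 the change was 0.29 (limma, adjusted p = 0.053), and on the 12 arrays it was also 0.29 (limma, adjusted p = 0.074).

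Mff encodes an outer-membrane receptor that brings DRP1 to the organelle. Its brightest kept probe, A_55_P2498056, read 15.63, 15.85, 15.67 and 15.64 in Atm-/- veh and 16.03, 16.18, 16.08 and 15.95 in Atm-/- NR. In WT veh it read 16.001, 16.19, 15.90 and 15.72, and in WT NR 15.97, 15.87, 15.96 and 16.08. The Atm-/- NR arrays lay above the Atm-/- veh arrays without overlap, while the WT groups overlapped each other. The rise with NR in Atm-/- was 0.36 ± 0.10 (SE; 1.28-fold; limma, adjusted p = 0.0348). This call was lost without any of Atm-/- veh 1, 3 or 4 or Atm-/- NR 1, 2 or 3 (limma, adjusted p from 0.0182 to 0.0985 over all arrays left out in turn), and on the 12 arrays the change was 0.39 (limma, adjusted p = 0.109).

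The other Mff probe, A_66_P136234, which carries the same accession, went the other way. It read 13.38, 13.34, 13.57 and 13.57 in Atm-/- veh and 13.33, 13.39, 13.38 and 13.33 in Atm-/- NR, so the groups overlapped, and the difference was -0.11 (limma, adjusted p = 0.379). Over the 16 arrays the correlation between both probes was -0.49, the only negative one among 10 such pairs. With the probes of each gene averaged, the Mff change was 0.13 (limma, adjusted p = 0.248).

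Fis1 encodes a tail-anchored outer-membrane protein linked to fission and to the turnover of mitochondria. On A_51_P291866 it read 13.86, 13.74, 13.69 and 13.68 in Atm-/- veh and 13.40, 13.40, 13.42 and 13.37 in Atm-/- NR. In WT veh it read 13.69, 13.64, 13.41 and 13.37, and in WT NR 13.45, 13.29, 13.46 and 13.39. All Atm-/- NR arrays were below all Atm-/- veh arrays and close to each other, from 13.37 to 13.42. The signal fell by 0.34 ± 0.08 (SE) with NR, to 0.788 of the veh level (limma, adjusted p = 0.0212). Leaving out Atm-/- veh 1 or Atm-/- NR 2, 3 or 4 ended this call (limma, adjusted p from 0.0133 to 0.0735 over all arrays left out in turn), and on the 12 arrays the change was -0.35 (limma, adjusted p = 0.0997).

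The Fis1 probe that was set aside, A_55_P2829703, carries the accession of another transcript. Fitted on the 15 arrays without the outlier mark, which leaves out WT NR 2, it gave a change of -0.22 ± 0.09 with NR in Atm-/- (limma, adjusted p = 0.13). This fit was chosen after the values were seen. The direction was thus that of the kept probe, with a smaller size that did not pass the threshold.

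Tomm20 had 3 kept probes. The brightest, A_55_P2041017, read 14.16, 14.38, 14.31 and 14.11 in Atm-/- veh and 14.61, 14.71, 14.75 and 14.65 in Atm-/- NR. In WT veh it read 14.69, 14.50, 14.31 and 14.24, and in WT NR 14.49, 14.50, 14.65 and 14.71. The mutant groups did not overlap, and the WT veh arrays spread over most of the range of both. With NR in Atm-/- the signal rose by 0.44 ± 0.10 (SE; 1.36-fold; limma, adjusted p = 0.0202), the largest change among the members' brightest kept probes. The call was lost without Atm-/- veh 1, Atm-/- veh 4, Atm-/- NR 2 or Atm-/- NR 3 (limma, adjusted p from 0.0134 to 0.0663 over all arrays left out in turn), and on the 12 arrays the change was 0.47 (limma, adjusted p = 0.0815).

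The probe A_66_P107768 of Tomm20 gave the same picture, with 13.62, 13.73, 13.70 and 13.55 in Atm-/- veh and 13.996, 14.08, 14.17 and 14.13 in Atm-/- NR. Its rise was 0.44 ± 0.08 (SE; limma, adjusted p = 0.0112), called with each array left out in turn but not on the 12 arrays (0.45; limma, adjusted p = 0.0523). The third probe, A_55_P2722842, differed by 0.08 without overlap of the groups (limma, adjusted p = 0.503). Both rising probes followed each other closely over the arrays (r = 0.93), and the third less so (r = 0.65 with the brightest). All 3 carry the same accession, so the size of the Tomm20 change depended on the probe.

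**Figure D2:**
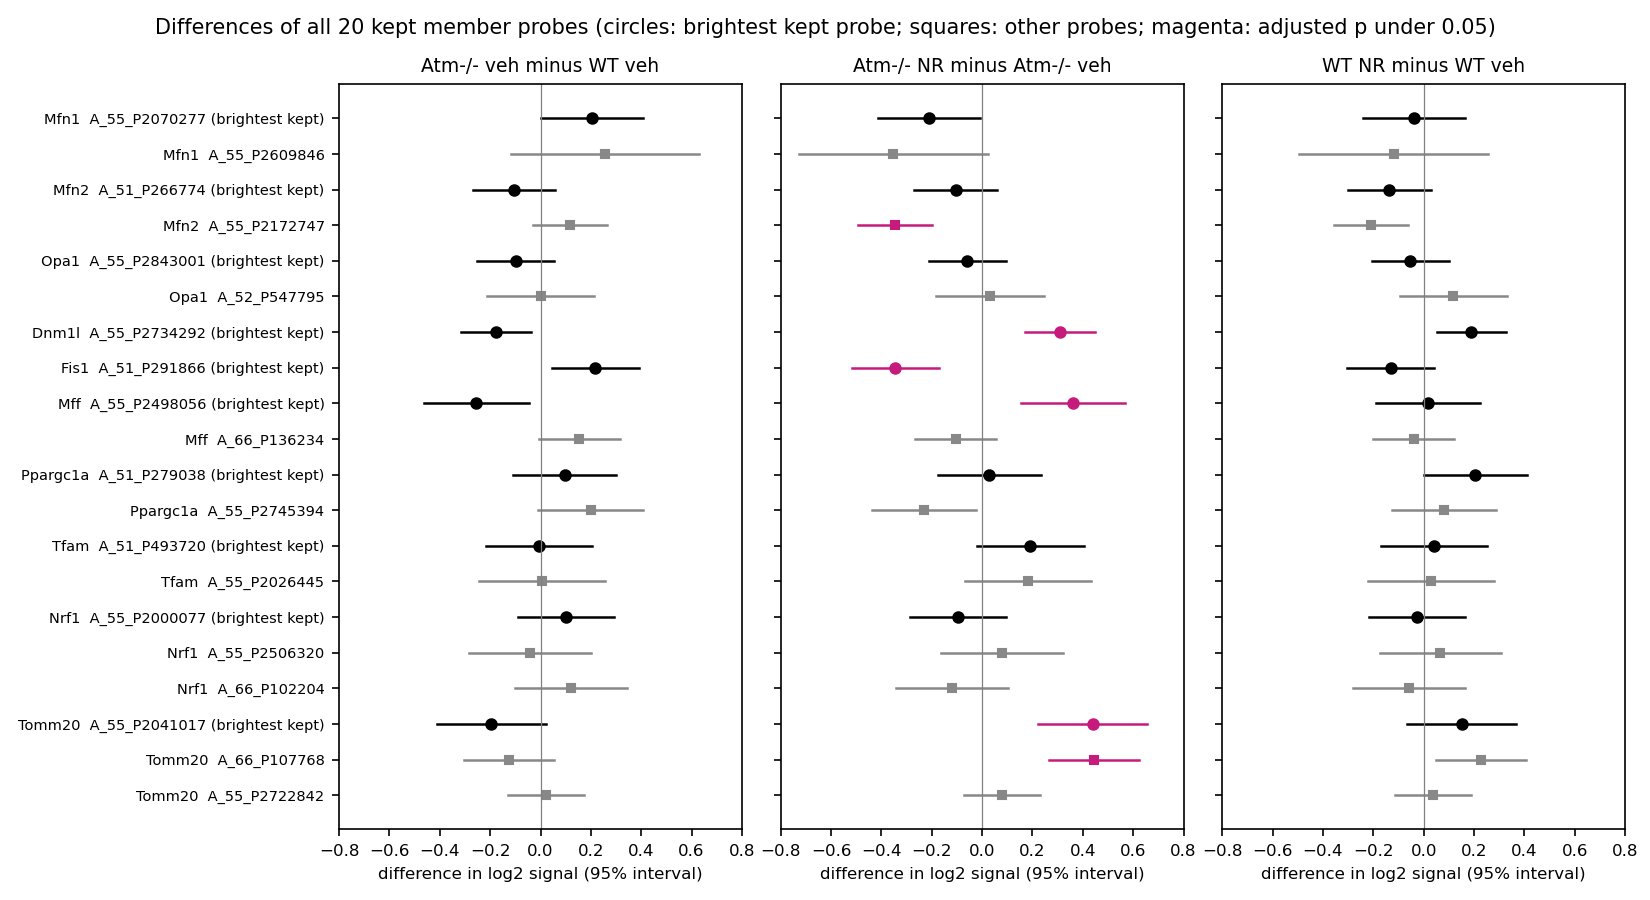
Difference in log2 signal (horizontal axes, with 95% intervals) of all 20 kept probes of the 10 members in 3 comparisons of 4 against 4 mice. Circles are the brightest kept probes and squares the others, and magenta marks an adjusted p under 0.05. Magenta is seen only for Atm-/- NR minus Atm-/- veh, at 6 of 20 probes, where 9.04% of all kept probes were called. The Mff probes lie on opposite sides of 0.

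Among the fusion genes, Mfn2 had a call on its dimmer probe. A_55_P2172747 read 11.85, 11.80, 11.70 and 11.89 in Atm-/- veh and 11.38, 11.53, 11.53 and 11.40 in Atm-/- NR. In WT veh it read 11.63, 11.77, 11.65 and 11.71, and in WT NR 11.52, 11.52, 11.49 and 11.38. On this probe NR arrays lay below veh arrays of the same genotype without overlap in both genotypes. The share of all genes without overlap was determined for NR in Atm-/- only. The fall in Atm-/- was 0.35 ± 0.07 (SE; limma, adjusted p = 0.0129) and was called with each array left out in turn, though not on the 12 arrays (-0.36; limma, adjusted p = 0.056).

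The brightest kept Mfn2 probe, A_51_P266774, has another transcript as its accession. It read 13.04, 13.09, 13.03 and 13.18 in Atm-/- veh and 13.03, 13.02, 12.91 and 12.96 in Atm-/- NR, which left the groups barely apart. In WT veh it read 13.05, 13.20, 13.31 and 13.20, and in WT NR 13.03, 13.16, 13.13 and 12.90. It passed no threshold in Atm-/- (limma, adjusted p = 0.393), and the call on Mfn2 thus rested on 1 of its 2 probes.

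Mfn1, the partner of MFN2 in outer-membrane fusion, read 12.76, 12.80, 12.55 and 12.53 in WT veh and 12.72, 12.39, 12.63 and 12.73 in WT NR. The Atm-/- veh arrays read 12.91, 12.71, 12.90 and 12.93, and in Atm-/- NR 12.74, 12.64, 12.56 and 12.67. The mutant groups overlapped only through Atm-/- veh 2. The difference with NR in Atm-/- was -0.21 ± 0.09 (unadjusted p under 0.05; limma, adjusted p = 0.164), and the dimmer Mfn1 probe had the same sign.

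Opa1, which joins inner membranes and shapes cristae, read 14.36, 14.32, 14.21 and 14.11 in WT veh and 14.25, 14.21, 14.11 and 14.23 in WT NR. In Atm-/- veh it read 14.14, 14.29, 14.10 and 14.07, and in Atm-/- NR 14.06, 14.12, 14.09 and 14.11. All groups overlapped, and neither of its probes had an unadjusted p under 0.05 in any comparison. At its brightest kept probe the 95% interval of the NR change in Atm-/- ran from -0.21 to 0.10.

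The biogenesis regulators had no call on any probe. Ppargc1a, the coactivator, read 13.05, 12.65, 12.81 and 13.003 in WT veh and 13.05, 12.91, 13.21 and 13.16 in WT NR. The Atm-/- veh arrays read 12.91, 12.89, 13.06 and 13.03, and in Atm-/- NR 12.99, 12.96, 12.97 and 13.09. The 95% interval of its NR change in Atm-/- ran from -0.18 to 0.23. The dimmer probe, A_55_P2745394, gave -0.23 in that comparison, with no overlap of the groups (limma, adjusted p = 0.143), although both probes tracked each other within groups (r = 0.95 for the deviations from group means).

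Tfam read 12.21, 12.41, 12.48 and 12.06 in WT veh and 12.29, 12.17, 12.52 and 12.35 in WT NR. In Atm-/- veh it read 12.25, 12.25, 12.22 and 12.43, and in Atm-/- NR 12.53, 12.47, 12.47 and 12.45. The mutant groups did not overlap, by a narrow margin, yet the test did not pass (limma, adjusted p = 0.225), and the 95% interval of the change ran from -0.02 to 0.40. Its 2 probes were close to each other over the arrays (r = 0.92).

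Nrf1 had 3 kept probes, and the brightest read 10.89, 10.995, 11.02 and 10.65 in WT veh and 10.90, 10.73, 10.90 and 10.91 in WT NR. The Atm-/- veh arrays read 10.95, 10.91, 11.15 and 10.95, and in Atm-/- NR 10.96, 10.86, 10.87 and 10.89. The groups overlapped in every pairwise comparison tested, and no Nrf1 probe had an unadjusted p under 0.05 in any comparison. The 95% interval of the NR change in Atm-/- ran from -0.29 to 0.10.

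**Figure D3:**
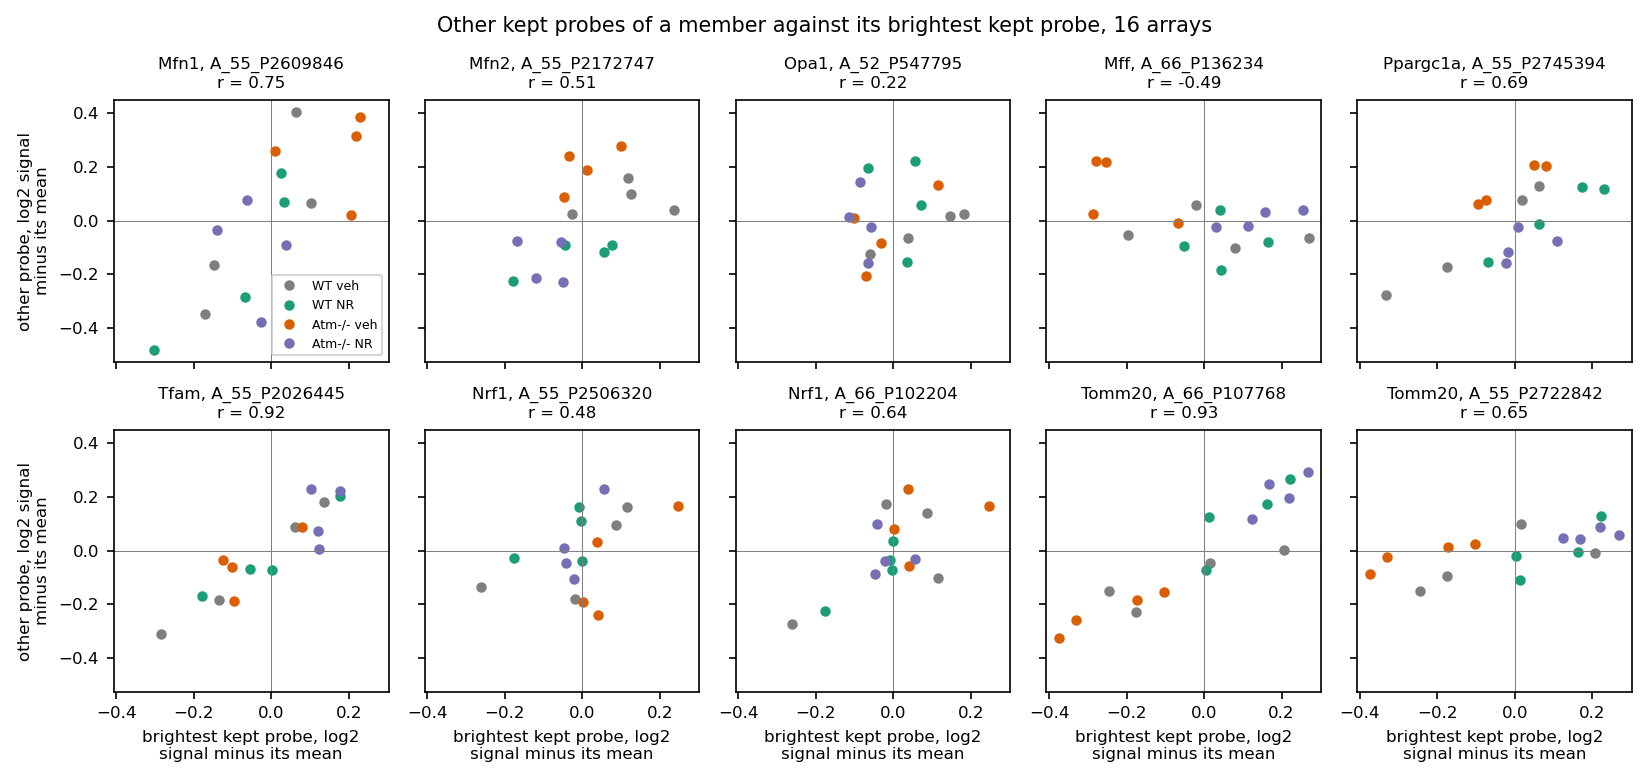
Log2 signal minus the mean over all 16 arrays for the brightest kept probe of a member (horizontal axes) and each other kept probe of that gene (vertical axes), with 1 point per array coloured by group. Pearson r over the 16 arrays is printed above each panel as a description. The pairs of Tomm20 and Tfam with r of 0.93 and 0.92 lie along a line, whereas the Mff pair has r of -0.49.

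The comparison of Atm-/- veh with WT veh asked what loss of Atm did without NR. With limma, 0 of 10 members passed an adjusted p of 0.05, 4 had an unadjusted p under 0.05 (16.8% of all genes did), and 0 passed all cut-offs of the methods' t-test. Over all genes 0.0538% were called with limma, and 0.0538% passed those cut-offs. Dnm1l differed by -0.18 ± 0.06 and Mff by -0.25 ± 0.10 (Atm-/- veh minus WT veh), while Fis1 differed by 0.22 ± 0.08 and Mfn1 by 0.20 ± 0.09 (SE; adjusted p from 0.259 to 0.342 in limma). The groups did not overlap for Dnm1l, and the share of all genes without overlap was not determined for this comparison. Without WT veh 4 these values were -0.19, -0.33, 0.16 and 0.16, in the same order. The other Mff probe, A_66_P136234, had the opposite sign here (0.15; limma, adjusted p = 0.36). The Fis1 probe that was set aside gave 0.04 on its 15 arrays (limma, adjusted p = 0.868). The brightest kept probes of the 10 members ranged from -0.25 to 0.22. This comparison uses the same Atm-/- veh arrays as that of NR in Atm-/-, so a low or high value there enters both with opposite signs.

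In WT mice NR gave 0 of 10 calls among the members and 0% among all genes (limma), with 2 members under an unadjusted p of 0.05 against 8.84% of all genes. With all cut-offs of the methods' t-test 0 members and 0% of all genes passed. Dnm1l differed by 0.19 ± 0.06 (limma, adjusted p = 0.564) and Ppargc1a by 0.21 ± 0.10 (limma, adjusted p = 0.653). The dimmer Ppargc1a probe gave 0.08 (limma, adjusted p = 0.898). Of the 20 kept probes, 4 had an unadjusted p under 0.05, as did 2838 of all 37253 kept probes. They included Mfn2 probe A_55_P2172747 (-0.21; limma, adjusted p = 0.534) and Tomm20 probe A_66_P107768 (0.23; limma, adjusted p = 0.573). On their brightest kept probes the changes of the 10 members ran from -0.14 to 0.21. The WT NR group holds 2 of the 4 arrays without Y-gene signal, and on the 12 arrays these differences were 0.23 for Dnm1l and 0.19 for Ppargc1a. With single arrays left out they ran from 0.17 to 0.24 for Dnm1l and from 0.13 (without WT veh 2) to 0.26 for Ppargc1a.

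Whether NR acted differently in both genotypes was tested as the difference between the NR changes. With limma, 0 of 10 members and 0% of all genes were called, so the calls found in Atm-/- alone were not shown to differ from the change in WT. On the brightest kept probes, Mff alone had an unadjusted p under 0.05 (998 of all 16737 genes did). It had the largest such difference, 0.34 ± 0.14 (limma, adjusted p = 0.839). Its other probe, A_66_P136234, had the opposite sign (-0.07; limma, adjusted p = 0.919). The dimmer Ppargc1a probe gave -0.31 (unadjusted p under 0.05; limma, adjusted p = 0.839). For Mff the NR change was 0.36 in Atm-/- and 0.02 in WT. For Dnm1l it was 0.31 and 0.19, for Tomm20 0.44 and 0.15, and for Fis1 -0.34 and -0.13.

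Averaged over both genotypes, NR moved 3 of 10 members past the threshold, where 13.4% of all genes were called, 7.44% higher and 5.94% lower. Dnm1l rose by 0.25 ± 0.05 (SE; limma, adjusted p = 0.00779) and Tomm20 by 0.29 ± 0.07 (limma, adjusted p = 0.0213), and Fis1 fell by 0.24 ± 0.06 (limma, adjusted p = 0.0205). Mff, at 0.19 (limma, adjusted p = 0.0912), and Mfn2, at -0.12 (limma, adjusted p = 0.168), did not pass, although the dimmer Mfn2 probe did (-0.28; limma, adjusted p = 0.00656). On the 12 arrays the change was 0.26 for Dnm1l (limma, adjusted p = 0.0324), 0.31 for Tomm20 (adjusted p = 0.0838) and -0.25 for Fis1 (adjusted p = 0.0837). The dimmer Mfn2 probe (-0.27; limma, adjusted p = 0.0335) and the Tomm20 probe A_66_P107768 (0.35; adjusted p = 0.0283) also passed there. The share of all genes called on the 12 arrays in this comparison is not given here.

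The remaining comparisons held few calls. Between Atm-/- NR and WT NR, 0 of 10 members were called with limma, and the differences ran from -0.11 to 0.14. An unadjusted p under 0.05 was found for 0 members and for 727 of all 16737 genes. Over all genes 0.0597% were called, and with all cut-offs of the methods' t-test 0 members and 0.0896% of all genes passed. Between genotypes averaged over treatments 0 of 10 were called with limma, against 0.221% of all genes. On the brightest kept probes, only Dnm1l had an unadjusted p under 0.05 (-0.12 ± 0.05; limma, adjusted p = 0.307). The Mff probe A_66_P136234, at 0.12 (limma, adjusted p = 0.351), also did. Of all 16737 genes, 2193 had an unadjusted p under 0.05 between genotypes. The test of any difference over the 4 groups called Dnm1l (adjusted p = 0.0234) and Fis1 (adjusted p = 0.048), against 6.14% of all genes, with Tomm20 at 0.0607 and Mff at 0.107 in limma. This pair of calls was sensitive to single arrays: with arrays left out in turn between 0 and 4 members were called, with 0 lacking Atm-/- veh 1, 3 or 4, with 4 lacking WT veh 4, and with 1 lacking WT veh 2, Atm-/- veh 2 or any NR array of either genotype. The shares of all genes called with these arrays left out are not given here.

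Within groups the members did not move as 1 block. Over the 45 pairs, the correlation of deviations from the group means across the 16 arrays ran from -0.63 to 0.71 with a median of 0.17, and 29 pairs were positive. The highest was between Opa1 and Mff (0.71), followed by Mff and Tomm20 (0.69) and Opa1 and Tomm20 (0.65), and the lowest was between Mfn2 and Tomm20 (-0.63). These values share the arrays and their normalization and are given as a description.

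Around the members, 118 genes in 6 lists of the same processes were examined, of which 117 were measured. With NR in Atm-/-, 21 of them were called, 18 higher and 3 lower, which is 17.9% against the 11.5% of all genes. Their median change was 0.06, and that of all genes 0.04. In each of the other 3 pairwise comparisons 0 of these genes were called with limma. Of the 117 genes, 18 had an unadjusted p under 0.05 for loss of Atm without NR (2817 of all 16737 genes did). For NR in WT 15 did (1479 of all genes), and for loss of Atm under NR 1 did (727 of all genes). On the 12 arrays with Y-gene signal only Mterf1a was still called (0.57; limma, adjusted p = 0.0422). The 18 other kept probes of the genes named in the next paragraphs gave 0 calls, and 12 of them had positive values. Leaving out single arrays gave 6 calls without Atm-/- veh 1, 8 without Atm-/- veh 4, 8 without Atm-/- NR 2, 7 without Atm-/- NR 3 and 12 without Atm-/- NR 4, where 3.01%, 4.71%, 5.31%, 3.12% and 6.46% of all genes were called, so calls were lost over the whole array. The highest count, 27, came without WT veh 4, where 15.1% of all genes were called.

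Of 26 further fusion and fission genes, 4 rose with NR in Atm-/- and 0 fell, with a median of 0.03 over the list (15.4% called, against 11.5% of all genes). With single arrays left out the calls ran from 2 (without Atm-/- veh 1 or 4 or Atm-/- NR 2 or 3) to 6. Slc25a46, an outer-membrane carrier-family protein that works with the fusion and MICOS machinery, rose by 0.51 ± 0.10 (SE; limma, adjusted p = 0.0121), and Gdap1, an outer-membrane protein tied to fission and to Charcot-Marie-Tooth neuropathy, by 0.33 ± 0.06 (adjusted p = 0.012). Afg3l2, a subunit of the matrix AAA protease whose loss harms Purkinje cells, rose by 0.42 (limma, adjusted p = 0.0262). Mtfr1, a regulator of fission, rose by 0.41 (limma, adjusted p = 0.0253).

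Of 12 genes for cristae organization, 3 rose and 0 fell, while the median of the list was -0.02 (25% called). With single arrays left out the calls ran from 1 (without Atm-/- veh 1 or Atm-/- NR 2 or 3) to 4. All 3 encode MICOS subunits: Chchd3 rose by 0.53 ± 0.09 (SE; limma, adjusted p = 0.00894), Micos10 by 0.42 (adjusted p = 0.0394) and Chchd6 by 0.36 (adjusted p = 0.0212). Dnajc11, a partner of MICOS, differed by -0.34 (limma, adjusted p = 0.0548). The list thus held values on both sides of 0.

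The biogenesis factors other than the members also split. Of 17 genes, 3 rose, 2 fell, and the median was 0.12 (29.4% called). With single arrays left out the calls ran from 1 (without Atm-/- veh 1 or 4) to 6. Creb1, a transcription factor upstream of Ppargc1a, rose by 0.46 (limma, adjusted p = 0.0124), but its 3 other probes gave 0.08 to 0.22 and no call. The subunits of the factor GABP went apart: Gabpa, which binds DNA, rose by 0.43 (limma, adjusted p = 0.0187), and Gabpb1, which activates transcription, fell by 0.41 (limma, adjusted p = 0.0241), with its 3 other probes at 0.06, -0.19 and -0.27 and not called. Yy1 rose by 0.31 (limma, adjusted p = 0.0438), with another probe at -0.21, and Ppard, a nuclear receptor, fell by 0.34 (limma, adjusted p = 0.0492).

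Of 20 genes for the maintenance and transcription of mitochondrial DNA, 3 rose, 0 fell, and the median was 0.18 (15% called). With single arrays left out the calls ran from 2 to 4. All 3 belong to the MTERF family of mitochondrial transcription regulators: Mterf1a (0.60 ± 0.07 SE; limma, adjusted p = 0.00507), Mterf1b (0.52; adjusted p = 0.00894) and Mterf2 (0.39; adjusted p = 0.0206). Mterf1a and Mterf1b are near-identical copies, so their probes may read the same transcripts. Tfb2m, a cofactor of the mitochondrial RNA polymerase, was at 0.29 (limma, adjusted p = 0.0584).

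For import, 1 of 13 measured genes of the outer membrane rose with NR in Atm-/-, Mtx2 of the sorting machinery (0.28; limma, adjusted p = 0.0487), and 0 fell (7.69% called). With most single arrays left out, of either genotype, this list held 0 calls. Tomm5 and Tomm6, small subunits of the translocase that holds TOM20, were at 0.25 (limma, adjusted p = 0.136) and -0.21 (adjusted p = 0.101), and Mtx3 was at 0.19 (adjusted p = 0.132). Of 29 genes for import across the inner membrane and into the matrix, 4 rose and 1 fell (17.2% called). With single arrays left out the calls ran from 0 (without Atm-/- veh 1 or 4 or Atm-/- NR 3) to 6. Those that rose were Pmpcb, Immp1l, Immp2l and Dnajc15. Pmpcb, the catalytic subunit of the mitochondrial processing peptidase, was at 0.38 (limma, adjusted p = 0.0201). The inner-membrane peptidase genes Immp1l and Immp2l were at 0.33 (limma, adjusted p = 0.0297) and 0.33 (limma, adjusted p = 0.0441). Dnajc15, a co-chaperone of the import motor, was at 0.22 (limma, adjusted p = 0.0373). Timm50, the receptor of the inner-membrane translocase, fell by 0.27 (limma, adjusted p = 0.0476).

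**Figure D4:**
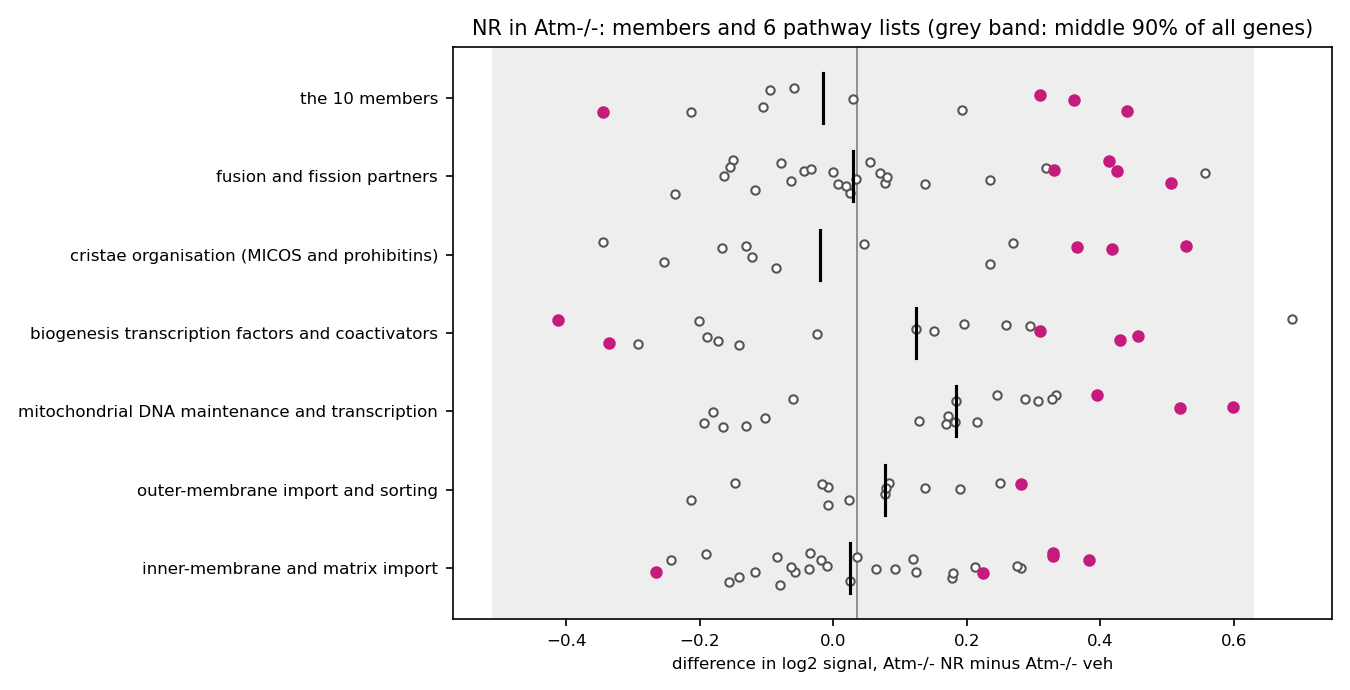
Difference in log2 signal between Atm-/- NR and Atm-/- veh (horizontal axis) for the 10 members and the measured genes of 6 lists of related processes, with 1 point per gene. Magenta points passed an adjusted p of 0.05, black bars are list medians, the grey line is the median of all genes (0.04) and the grey band runs from the 5% to the 95% quantile of all genes. Most magenta points lie to the right of 0.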

How the data were processed

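RNA from the cerebellar cortex of 16 mice was hybridized to 16 Agilent 1-colour (Cy3) arrays. The authors deposited the scanner output of every array (Agilent Feature Extraction 12.0.3.1), whose spot intensity has background removed but is not normalized between arrays, and a series-wide list of scores (z-scores per spot). The members and gene lists used here were chosen with earlier results of these data known. Probes were named through their accessions and RefSeq genes (GRCm38.p6), which named 32994 of 56605 probes. Probes with at least 0.5 of their spots well above background on all 4 arrays of a group were kept. Log2 intensity was quantile normalized, as in the authors' methods, and probes left without a value by outlier marks were set aside (788 of 38041), leaving 37253 probes for 16737 genes. The scores were used as an alternative only. Their order on an array followed the deposited intensity, with each column's median at -0.15.

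The program limma 3.58.1 (R 4.3.3) fitted 4 group means, leaving 12 residual degrees of freedom, and a call is an adjusted p under 0.05 (Benjamini-Hochberg, over all kept probes). P-values set a difference between groups against the spread between mice within groups, which limma moderates over all probes. They cannot separate genotype from slide or treatment from row. All 10 members are named by their brightest kept probe, with tested changes chiefly where the unadjusted p is under 0.05, and other probes where called or opposed. From each list, the 4 genes with the lowest p over the 4 groups and called genes, up to 6, are named. Precision is limited by the number of arrays. Between 34945 and 42559 probes per array were well above background. Alternatives were 75th percentile scaling, normexp with an offset of 50, the deposited scores, other filters, each array left out, the replicate number or slide as a block, only the groups compared, only arrays with Y-gene signal, probe averages and the methods' t-test on the scores. For that test the z-ratio was taken as the difference over the SD of all probes' differences, and the cut-offs were a z-ratio of 1.5, a p of 0.05, a false discovery rate of 0.3 and an ANOVA p of 0.05. Sequences came from RefSeq promoter windows, and 0 other columns of values were present.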

Additional observations from a re-analysis of the deposited data

Results flagged for a closer look

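In 6 of 40 groups of 4 arrays (10 members, brightest kept probe), 1 array lay far from the other 3, where about 2 would be expected by chance. In Atm-/- veh, array 2 was low for Mfn1 (12.71, the others from 12.90 to 12.93) and high for Mff (15.85, the others from 15.63 to 15.67). Array 4 of that group was high for Tfam (12.43, the others from 12.22 to 12.25), and array 3, which lacks Y-gene signal, was high for Nrf1 (11.15, the others from 10.91 to 10.95). In WT NR, array 1, which also lacks Y-gene signal, was low for Dnm1l (14.66, the others from 14.84 to 14.86), and array 2 was low for Nrf1 (10.73, the others from 10.90 to 10.91). For no member did the test of the difference between the NR changes of both genotypes pass (limma, lowest adjusted p = 0.839).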

How the results depend on the processing

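The 4 calls with NR in Atm-/- (Dnm1l, Fis1, Mff and Tomm20) stood under 75th percentile scaling, normexp, the deposited scores, either change of the filter (none for dim probes, or detection on all arrays), only the 2 groups compared and the replicate block, and 3 stood with probes averaged per gene. Leaving out arrays in turn gave 0 to 4 calls, with 0 lacking Atm-/- veh 1 (3.01% of all genes called), only Dnm1l lacking Atm-/- NR 2 (5.31%) or Atm-/- NR 3 (3.12%), and only Dnm1l and Fis1 lacking Atm-/- veh 4 (4.71%). The 12 arrays with Y-gene signal gave 0, and so did the methods' t-test with all its cut-offs (1.91% of all genes), though with Benjamini-Hochberg adjustment alone it gave 4 (11.7%). At its unadjusted p alone, an alternative chosen after seeing the data, it gave 7 (33.8% of all genes), and 2 for loss of Atm without NR (13.3%), 1 for NR in WT (8.08%) and 1 for loss of Atm under NR (6.98%). For NR averaged over genotypes the count was 3 to 4 with arrays left out and 1 on the 12 arrays. For any difference over the 4 groups (2 calls) it was 0 to 4 with arrays left out, 0 on the 12 arrays and 1 with the deposited scores, with no filter on dim probes, with probes averaged per gene and with the replicate block. For neither comparison is the share of all genes called in these settings given here. Over single members and alternatives, 620 values kept their side of the threshold, 59 lost and 8 gained a call, and 0 reversed. Only results with an unadjusted p under 0.05 or a call entered this count, and most alternatives refit the same arrays. A change of sign could thus hardly occur, and the test over the 4 groups has no sign. The values that kept their side include results that were never called. The Mff probe A_66_P136234, of opposite sign, was not an alternative of its own. The 21 calls among related genes ranged from 1 (the 12 arrays, with 1.51% of all genes called) to 30 (75th percentile scaling). Under that scaling 4169 kept probes were called, 40.6% of them higher, against 3366 and 50.4% in the main fit. Arrays left out gave 6 to 27 calls, with 27 lacking WT veh 4 (15.1% of all genes called). There were 6 lacking Atm-/- veh 1 (3.01%), 7 lacking Atm-/- NR 3 (3.12%) and 12 lacking Atm-/- NR 4 (6.46%). Lacking Atm-/- NR 2 (5.31%) or Atm-/- veh 4 (4.71%) there were 8. Probe averages gave 12, and the share of all genes there is not given here. The causes were not tested. Same-numbered arrays of different groups did not deviate together (median r -0.02 over 24 pairs, 6 of them above 0.1). The median was also -0.02 over the 72 pairs with different numbers. Whether same-numbered mice shared a litter or their handling cannot be told from these values.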
